A study of Mus musculus with 6 samples.

Results

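The genes described are 38 transcripts of the integrated stress response, the programme run by the transcription factor ATF4, listed by name as ATF4, its partners and genes reported as its targets. They were picked out of the 54146 genes counted in each library and fall into 5 roles: 6 transcription factors, 8 feedback regulators and effectors, 8 amino acid transporters, 11 enzymes of amino acid and one-carbon metabolism, and 5 cytosolic aminoacyl-tRNA synthetases. Of these, 35 had enough reads to be tested; Atf3, Vldlr and Cbs did not. RNA was sequenced from NIH/3T3 cells, an immortalised fibroblast line of Swiss albino mouse embryo. The groups were wild-type cells (WT) and 2 lines labelled Mki67-/-, clone 1 and clone 2, each a single clone, with 2 libraries per group. All groups are described as grown in high-glucose DMEM with pyruvate, foetal bovine serum and GlutaMAX, a stable dipeptide source of glutamine; no stress treatment is labelled. Mki67 encodes Ki-67, a protein of proliferating cells that coats mitotic chromosomes. The sources used here do not give how the clones were made, or whether the WT cells were a clone.

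In the integrated stress response, kinases that sense amino acid shortage, unfolded protein in the endoplasmic reticulum, viral RNA or haem deficiency phosphorylate the translation factor eIF2. Bulk translation then falls while the Atf4 messenger RNA is translated better, so ATF4 protein is set largely by translation and its transcript is a partial readout. ATF4 binds C/EBP-ATF response elements and raises genes that import amino acids, make serine, glycine, asparagine, proline and cysteine, charge tRNAs and, under lasting stress, promote cell death.

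Most of these transcripts were lower in the Mki67-/- libraries than in WT. Against WT, in the mean of both clones, 25 of the 35 tested members (71.4%) fell and 1, the transporter Slc38a2, rose, where 34.8% of all 13120 genes tested were called, 18.2% lower and 16.6% higher. The median log2 fold change over the tested members was -0.65, beside 0.0049 over all genes tested. The level in all 4 knockout libraries lay below both WT libraries for 28 of the 35, against 24.7% of all genes tested. It lay above both for Slc38a2 alone, against 25.1% of all genes tested. The 28 include Slc7a3, which had enough reads to be tested only through WT. The fall was deepest for Cth, a cysteine-making enzyme, at 7.14-fold, followed by Trib3, Slc7a11, Ddit3, Chac1 and Sesn2 at 2.04- to 3.48-fold. The 9 tested members that did not pass were Cebpb, Ddit4, Slc7a1, Slc7a3, Slc1a4, Phgdh, Aldh1l2, Nars and Wars.

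**Figure D1:**
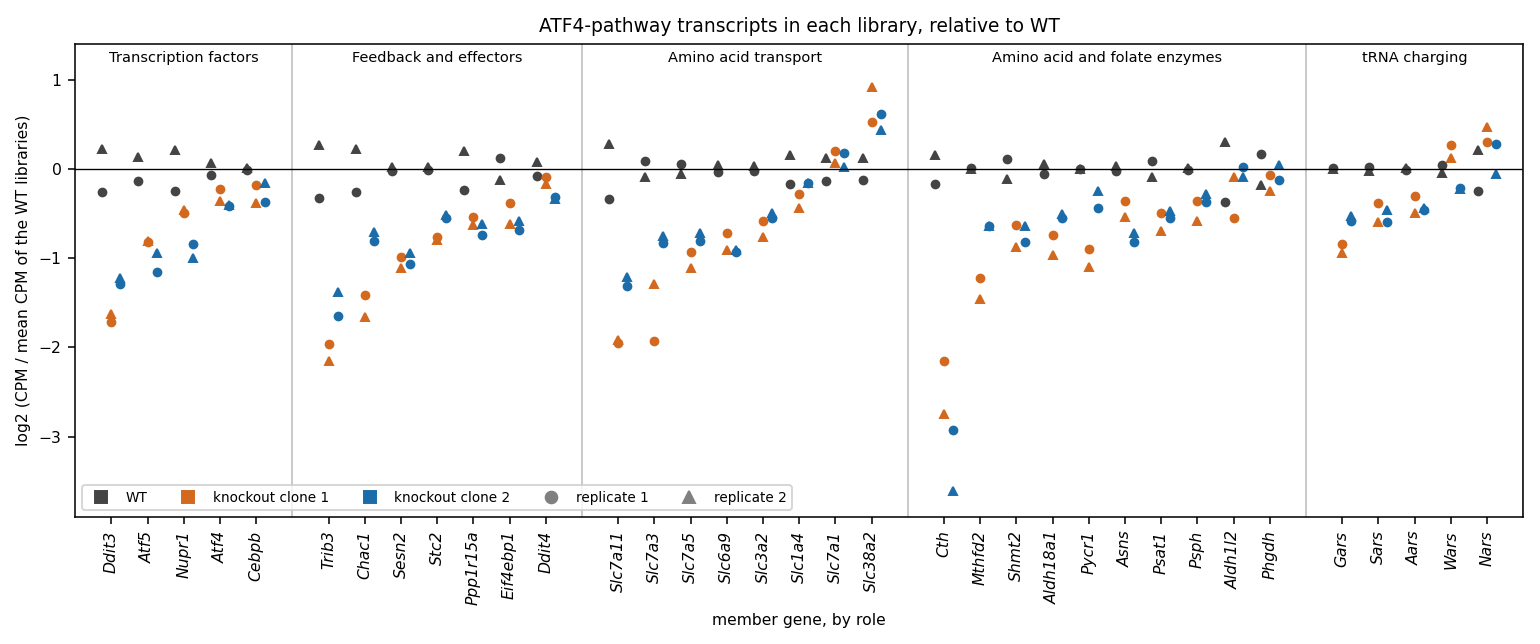
Level of each tested member in each library, as log2 of CPM over the mean CPM of the WT libraries (y axis), with members ordered by role (x axis), colour for the group and symbol for the replicate. In 28 of the 35 tested members every knockout point lies below both WT points. The 28 include Slc7a3, which had enough reads to be tested only through WT. Slc38a2 is the one member with every knockout point above them.

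Calls came from edgeR's quasi-likelihood test over all genes, at a Benjamini-Hochberg adjusted p below 0.05, and every adjusted p below is from it. CPM here is a gene's count over the library's total gene count, scaled by TMM and multiplied by 1000000, which offsets differences in library composition, and log2 fold changes carry their standard error (SE). Nothing in the labels says that the 2 libraries of a group were separate cultures; the p-values therefore reflect spread among these libraries alone, which may be technical. Because these are bulk samples, fewer cells that express a gene and less RNA of it per cell cannot be told apart. On leaving out any 1 library, every called member kept the direction of its log2 fold change, though some calls were lost, as given below.

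Mki67 (chromosome 7, 135689784 to 135716361 in GRCm38) was at 49.1 and 55.1 CPM in WT, 4.24 and 4.58 in clone 1, and 4.32 and 7.69 in clone 2. Its log2 fold change was -3.35 ± 0.18 (adjusted p = 1.13e-08), and no knockout library reached a WT level. Libraries held 3873249 to 19678782 gene counts, the lowest being WT replicate 1, and a floor of 3 counts was 0.151 to 0.814 CPM. Titles and sources name NIH/3T3, whereas the extraction protocol speaks of knockouts in 4T1, an epithelial line from a mouse mammary tumour. All 10 epithelial markers checked stayed below 1 CPM in all libraries: Epcam was at 0 throughout, Krt8 reached 0.505 CPM and Cdh1 0.543 CPM. Fibroblast markers were abundant, with Vim at 3351 to 5392 CPM, Col1a2 at 1290 to 2156 CPM and Col1a1 at 287 to 640 CPM. The 10 fibroblast markers summed to 9616 and 11229 CPM in WT and to 7314 to 8074 CPM in the knockout libraries. Lum was at 0 throughout. In the mean of both clones 5 of 9 tested fell and 1 rose, where 18.2% of all genes tested were called lower and 16.6% higher. The largest falls on the log2 scale were in Col3a1 (-1.90) and Thy1 (-1.03). Vim was also called lower, Col1a2 was not called, and Col1a1 was the marker that rose (0.75). The lower sum of the fibroblast markers moved with the members' fall, and its part in that fall was not tested. The 8 macrophage markers summed to 52.0 to 61.6 CPM in the 6 libraries, with the WT libraries at both ends of that range. Single markers moved within that sum: Csf1r was called higher (2.17 ± 0.21, adjusted p = 3.62e-06) and Cd14 lower (-0.54 ± 0.14, adjusted p = 0.00834), and 4 of the 8 stayed below 1 CPM. Their part in the members' fall was not tested.

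The DNA before the start sites of the members was searched for the core of the C/EBP-ATF response element, TGATGNAA, on both strands. RefSeq promoter windows (GRCm38.p6, 250 bases before to 50 bases after the start) were matched for 31 of the 38 members. The core was in 11 of the 31 (35.5%), beside 1219 of 27025 genes in the whole table (4.51%). Since the list was compiled from reported ATF4 targets, this share is a description of the list and not independent evidence. Matches were in 8 of the 22 members that fell and in 3 of the other 9. These 9 include Atf3, Cbs and Vldlr, which were not tested. The 3 matches were in Slc1a4 and in the untested Atf3 and Vldlr. The stretches below are of a member of each of 4 roles that fell, and are shown because each holds the core; capitals mark it, and bases inside the gene model are left out. They run 5' to 3' on the gene's strand.
Chac1, chr2:119350992-119351228, plus strand: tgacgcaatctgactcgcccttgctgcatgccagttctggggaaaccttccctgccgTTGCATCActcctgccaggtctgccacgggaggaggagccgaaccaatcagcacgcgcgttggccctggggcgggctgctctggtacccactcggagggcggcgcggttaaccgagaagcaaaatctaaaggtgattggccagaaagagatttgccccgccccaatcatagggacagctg
Slc7a11, chr3:50443615-50443863, minus strand: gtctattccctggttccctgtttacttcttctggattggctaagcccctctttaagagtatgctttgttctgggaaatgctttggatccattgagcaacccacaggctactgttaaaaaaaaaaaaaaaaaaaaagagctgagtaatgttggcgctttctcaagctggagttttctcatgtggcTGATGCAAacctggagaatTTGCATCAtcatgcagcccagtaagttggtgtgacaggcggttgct
Pycr1, chr11:120643770-120643998, minus strand: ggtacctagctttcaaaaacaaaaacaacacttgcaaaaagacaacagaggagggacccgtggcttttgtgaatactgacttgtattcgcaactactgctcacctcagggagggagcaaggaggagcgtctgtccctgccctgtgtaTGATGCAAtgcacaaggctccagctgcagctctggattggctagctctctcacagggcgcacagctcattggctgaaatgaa
Gars, chr6:55037751-55038000, plus strand: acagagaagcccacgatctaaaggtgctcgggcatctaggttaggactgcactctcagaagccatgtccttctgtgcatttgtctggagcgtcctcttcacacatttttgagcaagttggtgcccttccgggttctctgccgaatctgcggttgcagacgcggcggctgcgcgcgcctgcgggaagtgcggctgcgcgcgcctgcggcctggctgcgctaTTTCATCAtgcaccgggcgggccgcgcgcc
In Chac1, which encodes an enzyme that degrades glutathione, the core began 193 bases before the start. In Slc7a11, the cystine importer, there were 2 cores on opposite strands, beginning 66 and 47 bases before the start. The core of Pycr1, an enzyme of proline synthesis, began 103 bases before the start, and that of Gars, the glycyl-tRNA synthetase, 30 bases before it. Other windows with a match were those of Asns (TGATGAAA), Nupr1, Atf3, Slc1a4 and Vldlr (TTGCATCA in each), Aars (TTGCATCA, and TTTCATCA after its start) and Trib3 (TTACATCA, after its start). A match is a run of letters and shows no binding.

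Among the transcription factors, 4 of the 5 tested fell, with a median log2 fold change of -0.72. Ddit3 (ENSMUSG00000025408, chromosome 10, 127290774 to 127296288 in GRCm38) encodes CHOP, the factor tied to cell death after prolonged stress. It was at 41.5 and 57.7 CPM in WT, 15.1 and 16.0 in clone 1, and 20.4 and 21.2 in clone 2. The groups were separate, with clone 1 lowest, and the log2 fold change was -1.49 ± 0.14 (adjusted p = 3.50e-06). A second identifier with the symbol Ddit3 has 105 exon bases, all of them within the exons of this one, where they make up 6.13%. It had no counts, and could hold none from those bases, since reads over overlapping genes are left out. Atf5, a relative of Atf4 whose messenger RNA is also translated better when eIF2 is phosphorylated, was at 197 and 237 CPM in WT, 123 and 124 in clone 1, and 97.2 and 113 in clone 2. It fell by 0.94 ± 0.12 on the log2 scale (adjusted p = 3.75e-05).

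Nupr1, a small stress-induced chromatin protein, was at 43.7 and 60.4 CPM in WT, 36.9 and 37.9 in clone 1, and 29.1 and 26.1 in clone 2. It fell by 0.72 ± 0.14 on the log2 scale (adjusted p = 0.00134), and by 0.44 without WT replicate 2, the higher of the WT libraries.

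Atf4 itself (ENSMUSG00000042406, chromosome 15, 80255184 to 80257541) had the smallest fold of the 25 members that fell. It was at 991 and 1093 CPM in WT, 893 and 813 in clone 1, and 782 and 784 in clone 2. All knockout libraries were below both WT libraries, but the fold was small, 1.28-fold, with a log2 fold change of -0.35 ± 0.12 (adjusted p = 0.0303). The call was lost with a correction for GC content and length, at -0.16 (adjusted p = 0.240), with scaling to library totals, at -0.27 (0.0589), and, at -0.36 to -0.27 (0.101 to 0.137), on leaving out any of 4 libraries: WT replicate 2, replicate 2 of clone 1 and either replicate of clone 2. Per kilobase of exon, Atf4 was nonetheless the most abundant member in WT at 442 CPM per kilobase, ahead of Psat1 at 335 and Shmt2 at 242; Slc7a11 stood at 0.616. Cebpb, a C/EBP factor that pairs with ATF4, was at 76.0 and 77.3 CPM in WT and 58.9 to 68.4 CPM in the knockout libraries. Its log2 fold change of -0.27 ± 0.12 did not pass (adjusted p = 0.0889). Atf3, a further stress-induced factor, had at most 1 count in any library.

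**Figure D2:**
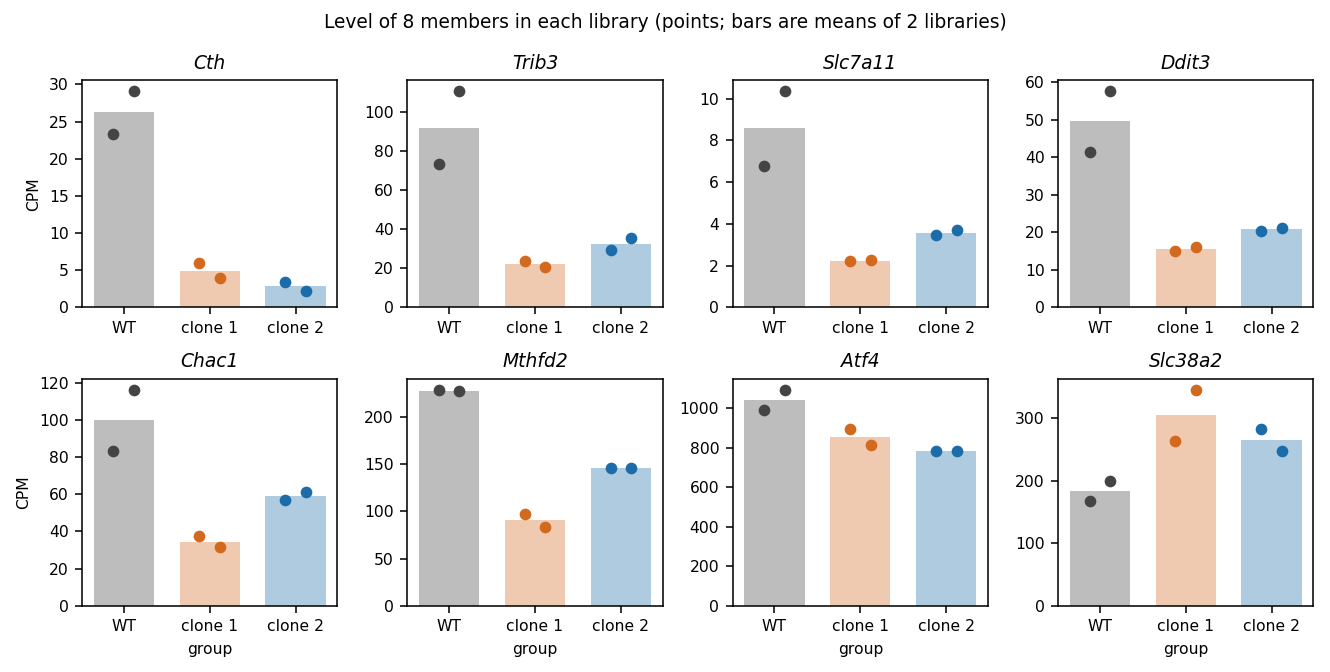
CPM (y axis, from 0) of 8 members in the WT, clone 1 and clone 2 libraries; points are libraries and bars the means of 2 libraries. Cth, Trib3, Slc7a11, Ddit3, Chac1 and Mthfd2 are clearly lower in both clones, Atf4 is lower by a small margin, and Slc38a2 is higher.

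Of the feedback regulators and effectors, 6 of 7 tested fell, with a median log2 fold change of -0.66. Trib3 (ENSMUSG00000032715, chromosome 2, 152337422 to 152344032), a pseudokinase that feeds back on ATF4, was at 73.5 and 111 CPM in WT, 23.6 and 20.8 in clone 1, and 29.5 and 35.5 in clone 2. Its log2 fold change was -1.80 ± 0.15 (adjusted p = 1.04e-06), with every knockout library at 35.5 CPM or below. Chac1 (ENSMUSG00000027313, chromosome 2, 119351229 to 119354381), whose promoter is shown above, was at 83.3 and 116 CPM in WT, 37.6 and 31.5 in clone 1, and 56.9 and 61.1 in clone 2. The 3 groups did not overlap, and the log2 fold change was -1.16 ± 0.14 (adjusted p = 2.28e-05). Sesn2 encodes a leucine sensor that restrains mTORC1, the growth-promoting kinase complex. Its level was 90.1 and 92.6 CPM in WT, 46.0 and 42.4 in clone 1, and 43.7 and 47.5 in clone 2, and the log2 fold change was -1.03 ± 0.11 (adjusted p = 1.04e-05) with the clones at overlapping levels.

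Stc2, a secreted glycoprotein, fell from 27.1 and 27.7 CPM in WT to 15.8 to 19.1 CPM (log2 fold change -0.66 ± 0.13, adjusted p = 0.00178). Eif4ebp1 encodes a repressor of cap-dependent translation. It fell from 285 and 241 CPM to 163 to 201 CPM (-0.56 ± 0.12, adjusted p = 0.00226). Ppp1r15a encodes GADD34, which directs a phosphatase to eIF2 and so ends the response. It was at 50.5 and 68.4 CPM in WT and 35.5 to 41.0 CPM in the knockout libraries (-0.65 ± 0.13, adjusted p = 0.0021); without WT replicate 2 the log2 fold change was -0.39 and the call was lost (adjusted p = 0.0753). Ddit4, another mTORC1 inhibitor known as REDD1, was at 136 and 151 CPM in WT, 135 and 128 in clone 1 and 115 and 114 in clone 2, and did not pass (-0.23 ± 0.11, adjusted p = 0.108). Vldlr, a lipoprotein receptor, is listed at 0 on both strands in all 6 libraries, as is the widely expressed gene Dnajc3, so whether these zeros reflect expression or counting is not known.

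The transporters did not all move the same way: of 8, all tested, 4 fell and 1 rose. Those that fell were Slc7a11, Slc7a5, Slc3a2 and Slc6a9. Slc7a11 (ENSMUSG00000027737, chromosome 3, 49892526 to 50443614) imports cystine in exchange for glutamate. It was low in WT at 6.78 and 10.4 CPM and lower still at 2.22 and 2.26 in clone 1 and 3.45 and 3.71 in clone 2, for a log2 change of -1.68 ± 0.21 (adjusted p = 4.68e-05). Slc7a5, the light chain of the large neutral amino acid exchanger, was at 262 and 241 CPM in WT, 132 and 116 in clone 1, and 144 and 153 in clone 2 (-0.89 ± 0.11, adjusted p = 3.39e-05). Slc3a2, the heavy chain shared by Slc7a5 and Slc7a11, fell less, from 343 and 356 CPM to 206 to 248 CPM (-0.60 ± 0.11, adjusted p = 0.000801). Slc6a9, a glycine transporter, fell from 94.2 and 99.3 CPM to 50.8 to 58.8 CPM (-0.87 ± 0.11, adjusted p = 4.81e-05).

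Slc38a2 (ENSMUSG00000022462, chromosome 15, 96687392 to 96699730) went the other way. It encodes SNAT2, a sodium-coupled carrier of small neutral amino acids that is itself induced by amino acid shortage. Its level was 168 and 199 CPM in WT, 264 and 346 in clone 1, and 282 and 248 in clone 2. Every knockout library was above both WT libraries, 1.54-fold in the mean of both clones, with a log2 fold change of 0.62 ± 0.14 (adjusted p = 0.00311). With the GC and length correction the log2 fold change was 0.41, still called. Slc7a1, a carrier of arginine and lysine, was at 153 and 182 CPM in WT and 170 to 192 CPM in the knockout libraries (0.11 ± 0.12, adjusted p = 0.497), with overlapping groups. Slc1a4, which carries alanine, serine and cysteine, was at 155 and 194 CPM in WT and 129 to 156 CPM in the knockout libraries (-0.27 ± 0.12, adjusted p = 0.0991); without WT replicate 1 it was called lower, at -0.42 (adjusted p = 0.0113), and without WT replicate 2 it was at -0.078 (adjusted p = 0.726). Slc7a3, another cationic amino acid carrier, rested on 3 to 8 counts a library and passed the filter on low counts only through WT; its log2 fold change of -1.13 ± 0.51 did not pass (adjusted p = 0.0981).

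Among the metabolic enzymes, 8 of the 10 tested fell, with a median log2 fold change of -0.64. Cth (ENSMUSG00000028179, chromosome 3, 157894248 to 157925077), cystathionine gamma-lyase, makes cysteine from cystathionine. It was at 23.3 and 29.1 CPM in WT, 5.90 and 3.89 in clone 1, and 3.45 and 2.15 in clone 2, for a log2 change of -2.84 ± 0.21 (adjusted p = 2.43e-07). Cbs, the enzyme just before it, had 0 to 5 counts a library in all groups and was not tested. Cth and Slc7a11, which supply cysteine by synthesis and by import, thus both stood among the 3 largest falls of the list.

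The serine and one-carbon enzymes fell unevenly. Phgdh, which makes the first committed step of serine synthesis, was at 202 ± 33.6 CPM (SD, n = 2) in WT and 169 to 208 CPM in the knockout libraries, and did not pass (-0.09 ± 0.12, adjusted p = 0.598). Psat1, the next enzyme, fell from 1517 and 1332 CPM in WT to 1010 and 876 in clone 1 and 970 and 1026 in clone 2 (-0.55 ± 0.12, adjusted p = 0.00329). Psph, the last enzyme, was at 141 and 143 CPM in WT and 94.7 to 117 CPM in the knockout libraries (-0.40 ± 0.11, adjusted p = 0.0128); the call was lost without clone 1 replicate 2 (-0.36, adjusted p = 0.0570) and without clone 2 replicate 1 (-0.38, adjusted p = 0.0596).

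Shmt2, the mitochondrial enzyme that turns serine into glycine and a one-carbon unit, fell from 811 and 696 CPM to 412 to 486 CPM (-0.74 ± 0.12, adjusted p = 0.000444; -0.49 with the GC and length correction). Mthfd2 (ENSMUSG00000005667, chromosome 6, 83305691 to 83325908) carries that unit on in mitochondria. It was at 229 and 227 CPM in WT, 97.6 and 83.0 in clone 1, and 146 and 146 in clone 2, for a log2 change of -0.99 ± 0.11 (adjusted p = 1.31e-05). Aldh1l2, which oxidises the folate-bound unit, ranged from 71.9 and 115 CPM in WT to 63.7 to 95.0 CPM in the knockout libraries and did not pass (-0.19 ± 0.17, adjusted p = 0.4). Its WT libraries differed from each other more than the groups did: the log2 fold change was -0.47 and called without WT replicate 1 (adjusted p = 0.00262), and 0.22 without WT replicate 2.

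Asparagine synthetase, Asns (ENSMUSG00000029752, chromosome 6, 7675169 to 7693254), is a classical ATF4 target. It was at 619 and 642 CPM in WT, 491 and 432 in clone 1, and 356 and 382 in clone 2 (-0.61 ± 0.11, adjusted p = 0.000889). Both steps of proline synthesis on the list fell. Aldh18a1, the first, went from 343 and 370 CPM in WT to 183 to 251 CPM (-0.69 ± 0.11, adjusted p = 0.000322). Pycr1 (ENSMUSG00000025140, chromosome 11, 120635712 to 120643769), the last, went from 34.5 and 34.3 CPM in WT to 18.4 and 16.0 in clone 1 and 25.3 and 28.9 in clone 2 (-0.67 ± 0.13, adjusted p = 0.00182). With the 4 knockout libraries fitted as 1 group, Pycr1 was not called (-0.64, adjusted p = 0.0518).

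Of the 5 tRNA synthetases on the list, which join amino acids to their tRNAs, 3 fell, with a median log2 fold change of -0.42. Gars (ENSMUSG00000029777, chromosome 6, 55038007 to 55079500) fell from 711 and 704 CPM in WT to 394 and 368 in clone 1 and 470 and 490 in clone 2 (-0.73 ± 0.11, adjusted p = 0.000186). Sars, for serine, fell from 664 and 643 CPM to 433 to 502 CPM (-0.50 ± 0.11, adjusted p = 0.00382). Aars, for alanine, fell from 792 and 806 CPM to 569 to 648 CPM (-0.42 ± 0.11, adjusted p = 0.0106). The Aars call was lost with the GC and length correction (-0.22, adjusted p = 0.0598), without clone 1 replicate 2 (-0.38, 0.0522) and without clone 2 replicate 1 (-0.42, 0.0578), and 14.3% of its exon bases overlap Exosc6. Wars, for tryptophan, was at 185 and 173 CPM in WT, 216 and 195 in clone 1 and 154 and 153 in clone 2; clone 1 lay above WT and clone 2 below, and the mean contrast did not pass (-0.01 ± 0.11, adjusted p = 0.964). Nars, for asparagine, was at 138 and 191 CPM in WT and 158 to 227 CPM in the knockout libraries (0.24 ± 0.14, adjusted p = 0.214); without WT replicate 2 it was called higher, at 0.51 (adjusted p = 0.00403), and without WT replicate 1 it was at 0.034 (adjusted p = 0.887).

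The clones were also compared with WT singly; both comparisons use the same WT libraries. In clone 1, 24 of 35 tested members fell (68.6%) and 1 rose, where 31.7% of all genes were called, 16.5% lower and 15.2% higher. In clone 2, 23 fell (65.7%) and 1 rose, where 27.4% of all genes were called, 14.5% lower and 12.9% higher. The median log2 fold change of the tested members was -0.60 in clone 1 and -0.54 in clone 2. The single-clone counts rest on both libraries of the clone. Without clone 1 replicate 2, or without either replicate of clone 2, fewer members were called in that clone. The count of all genes called in that clone fell as well. The rise of Slc38a2 was 0.72 in clone 1 and 0.52 in clone 2; it was no longer called in clone 1 without replicate 2 (0.51, adjusted p = 0.0660), nor in clone 2 without replicate 1 (0.42, 0.205) or replicate 2 (0.60, 0.0543). Atf4 was called in clone 2 (-0.41, adjusted p = 0.0358) and not in clone 1 (-0.29, adjusted p = 0.119). The clone 2 call was lost on leaving out any library other than WT replicate 1 (adjusted p 0.0532 to 0.225), with the GC and length correction (-0.19, 0.238), with library totals (0.0605) and in a fit of the 4 WT and clone 2 libraries alone (0.0572). The difference between the clones, -0.12 ± 0.13, did not pass (adjusted p = 0.749).

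**Figure D3:**
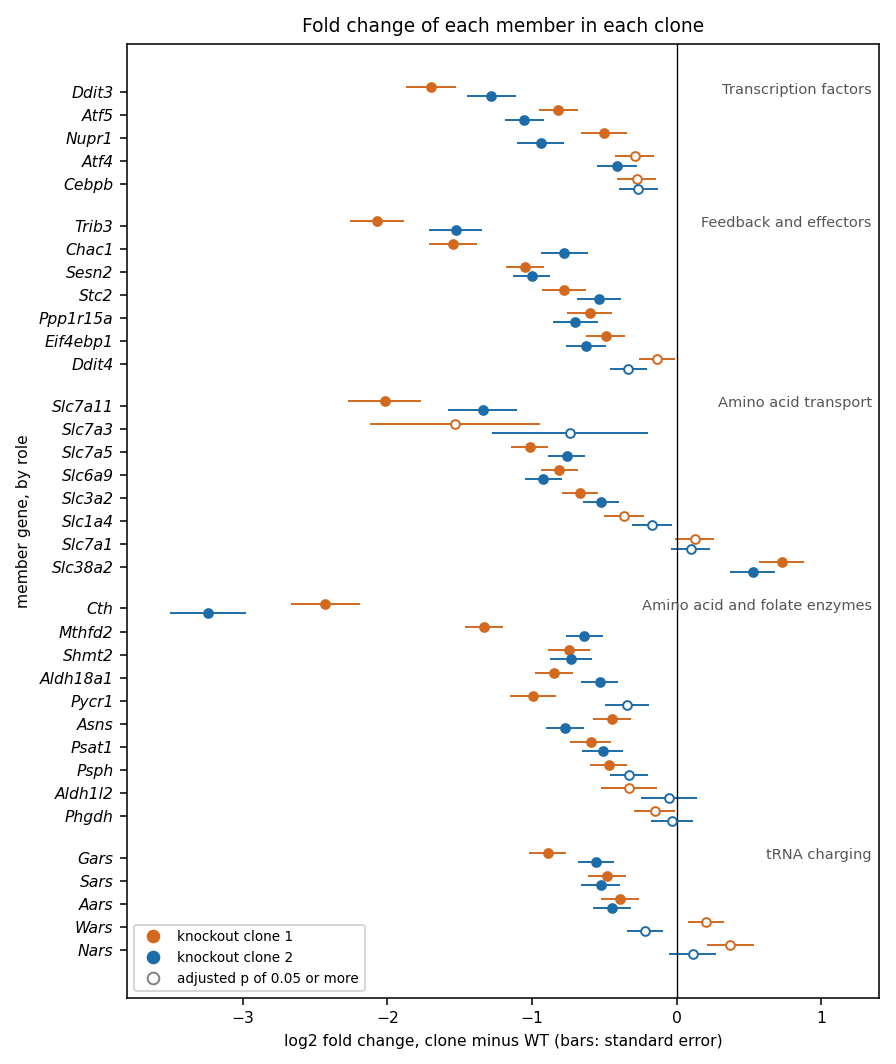
Log2 fold change of each tested member in clone 1 and clone 2 against WT (x axis; bars are standard errors), with members ordered by role (y axis) and open symbols at an adjusted p of 0.05 or more. Most points of both clones lie left of 0; Chac1, Mthfd2 and Pycr1 lie further left in clone 1, at -1.55, -1.33 and -0.995, than in clone 2, at -0.78, -0.64 and -0.34.

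Compared directly, clone 2 differed from clone 1 in 3 of 35 tested members, all higher in clone 2; of all genes tested, 3.54% were called, 1.18% higher and 2.36% lower. Chac1 was higher by 0.77 ± 0.16 on the log2 scale (adjusted p = 0.0142), Mthfd2 by 0.69 ± 0.13 (adjusted p = 0.00621) and Pycr1 by 0.65 ± 0.15 (adjusted p = 0.0275). The deeper fall of these 3 was therefore in clone 1. Leaving out clone 1 replicate 2, clone 2 replicate 1 or clone 2 replicate 2 ended all 3 calls, with log2 differences of 0.55 to 0.81. DESeq2 was run only on all libraries, where it called 3 members. Cth pointed the other way, lower in clone 2 than in clone 1 by a log2 difference of -0.81 ± 0.28, which did not pass (adjusted p = 0.143). For Trib3 the difference was 0.55 ± 0.18 (adjusted p = 0.135), and for Slc7a11 0.68 ± 0.26 (adjusted p = 0.198).

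Neighbouring genes of the pathway were counted in the same contrast, the mean of both clones against WT, from lists written by role. For each list below, the share over all genes tested was 18.2% called lower and 16.6% called higher. Of other reported ATF4 targets, 9 of 16 tested were called lower and the median log2 fold change was -0.50; whether they differed from the members was not tested. The 9 include Gdf15 and Gadd45a, whose calls are uncertain. Largest by fold were Gdf15, a stress-induced secreted factor, and Gadd45a, a growth arrest gene. Gdf15 rested on 2 to 10 counts a library and passed the filter on low counts only through WT; its log2 fold change was -1.63 ± 0.54 (adjusted p = 0.0315), and leaving out any 1 of WT replicate 1, WT replicate 2, clone 1 replicate 2, clone 2 replicate 1 or clone 2 replicate 2 ended the call (0.0814 to 0.131), as did DESeq2 (0.139), unstranded counts (0.106), no low-count filter (0.0518) and the clones as 1 group (0.0960). Gadd45a was at 5.16 and 18.4 CPM in WT, 3.18 and 4.27 in clone 1 and 7.89 and 6.84 in clone 2 (-1.36 ± 0.30, adjusted p = 0.00347), and at 0.02 without WT replicate 2; with the clones as 1 group it was not called (-1.22, 0.0552). Further targets, chosen after their values were seen, had well-separated groups. Gpt2, which makes alanine from pyruvate, fell from 147 and 183 CPM to 62.5 to 82.5 CPM (-1.15 ± 0.12, adjusted p = 6.40e-06). Nfil3, a bZIP transcription factor, fell from 73.8 and 80.7 CPM to 29.6 to 38.9 CPM (-1.19 ± 0.12, adjusted p = 4.97e-06).

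Synthetases outside the member list had medians near 0. Of 15 other cytosolic synthetases, 5 fell and 1 rose, with a median log2 fold change of 0.0094. Cars, for cysteine, fell by 0.87 ± 0.11 on the log2 scale (adjusted p = 3.66e-05) and Yars, for tyrosine, by 0.86 ± 0.11 (adjusted p = 3.51e-05). Dars, for aspartate, rose by 0.73 ± 0.16 (adjusted p = 0.0031), or by 0.48 without WT replicate 1, 1.14 without WT replicate 2 and 0.40 with the GC and length correction. Of 17 mitochondrial synthetases, 2 fell and 3 rose, with a median of 0.05. Sars2 (-1.26 ± 0.15) and Fars2 (-0.63 ± 0.14) had the largest falls among the called genes; Cars2 was called higher (0.74 ± 0.15).

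Of 14 tested amino acid transporters outside the list, 2 fell and 5 rose, with a median of 0.14. Slc1a5, the main glutamine carrier of many proliferating cells, fell from 155 and 160 CPM to 66.5 to 81.3 CPM (-1.07 ± 0.10, adjusted p = 3.80e-06). Slc7a7 had a log2 fold change of -1.36 ± 0.42, a call lost without WT replicate 2 (-1.42, adjusted p = 0.144), clone 1 replicate 2 (-1.31, 0.0599) or clone 2 replicate 1 (-1.14, 0.0682), in DESeq2 (0.104) and with the clones as 1 group (0.0748). Slc6a6, the taurine transporter, rose by 0.84 ± 0.15. Slc43a2, a neutral amino acid carrier, was called higher at 1.32 ± 0.24 in the mean of both clones, but the clones were unequal: 1.90 in clone 1 (adjusted p = 6.72e-05) and 0.74 in clone 2 (0.0522). The difference between the clones was itself called, at -1.16 ± 0.19 (adjusted p = 0.00332).

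**Figure D4:**
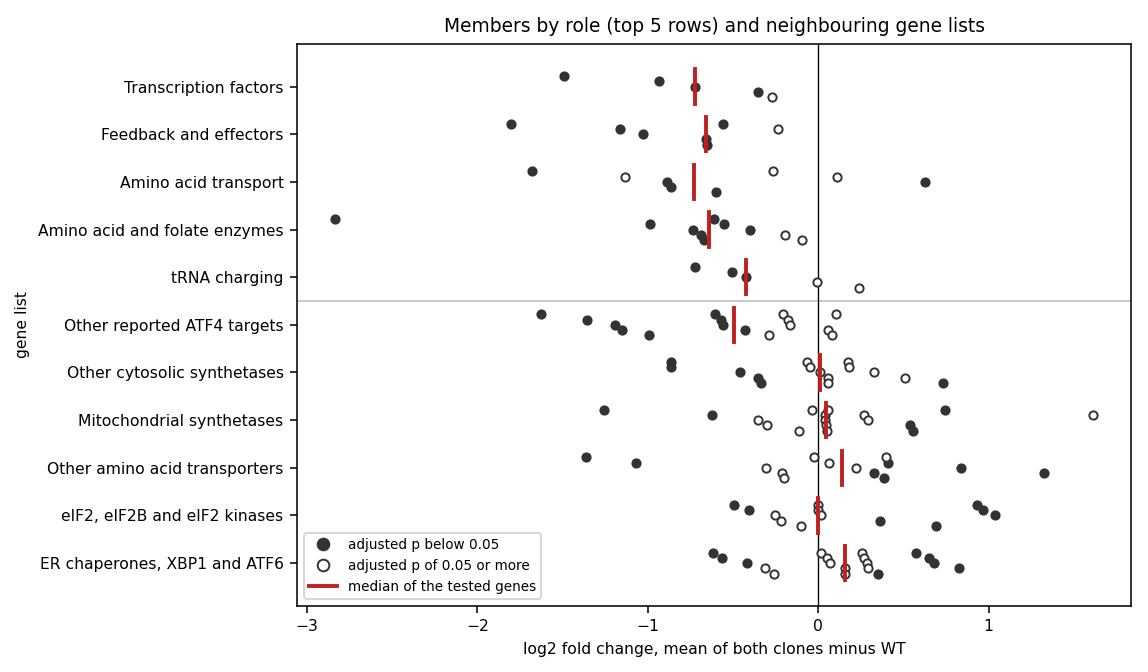
Log2 fold change in the mean of both clones against WT (x axis) of each tested gene in the 5 member roles (top 5 rows) and 6 neighbouring lists (y axis); filled points have an adjusted p below 0.05 and red bars mark medians. The medians of the member roles lie between -0.73 and -0.42 and that of other ATF4 targets at -0.50, while the remaining lists have medians from -0.00017 to 0.16.

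Upstream of ATF4, the 13 genes of eIF2, its exchange factor, its kinases and its phosphatase subunit had a median log2 fold change of -0.00017; 5 rose and 2 fell. The kinase genes Eif2ak1 (HRI, the haem sensor) and Eif2ak3 (PERK, the endoplasmic reticulum sensor) were at 46.3 to 53.2 and 16.5 to 24.9 CPM across the 6 libraries, with overlapping groups. Eif2ak2, which encodes the double-stranded RNA sensor PKR, was at 5.43 and 6.22 CPM in WT, 9.69 and 16.4 in clone 1, and 11.7 and 11.3 in clone 2, a rise of 1.04 ± 0.25 (adjusted p = 0.00521). Eif2ak4, which encodes the amino acid sensor GCN2, and Eif2s1 and Eif2s2, which encode subunits of eIF2, were chosen after their values were seen. Eif2ak4 had a log2 fold change of 0.36 ± 0.13 (adjusted p = 0.036), a call lost without WT replicate 1 (0.30, adjusted p = 0.143), clone 1 replicate 2 (0.34, 0.0889), clone 2 replicate 1 (0.31, 0.148) or clone 2 replicate 2 (0.40, 0.0598), in DESeq2 (0.0581) and with the clones as 1 group (0.0649).

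The transcripts of 3 eIF2 subunits, Eif2s1, Eif2s2 and Eif2s3x, rose. Eif2s1 rose by 0.69 ± 0.13 (adjusted p = 0.000891), Eif2s2 by 0.93 ± 0.16 (adjusted p = 0.000723) and Eif2s3x by 0.97 ± 0.20 (adjusted p = 0.00207); with the GC and length correction Eif2s1 was at 0.35 and Eif2s2 at 0.50. Eif2b3, of the exchange factor eIF2B, fell by 0.49 ± 0.12 (adjusted p = 0.00564). Eif2b5, another of its subunits, had a log2 fold change of -0.40 ± 0.11 (adjusted p = 0.0144), a call lost when WT replicate 1 (-0.29, 0.0956), clone 1 replicate 2 (-0.37, 0.0615) or clone 2 replicate 1 (-0.38, 0.0728) was left out. These are transcript levels; phosphorylation of eIF2 and ATF4 protein were not measured.

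The other arms of the unfolded protein response, run by XBP1 and ATF6, did not share the members' median. Of 19 tested genes, 5 rose and 3 fell, with a median log2 fold change of 0.16. Over all genes tested, 16.6% were called higher and 18.2% lower. The chaperone gene Hsp90b1 rose by 0.82 ± 0.18, or by 0.52 with the GC and length correction. Canx, calnexin, rose by 0.68 ± 0.18, or by 0.40 without WT replicate 1, 1.05 without WT replicate 2 and 0.39 with that correction. Pdia4, a disulphide isomerase, fell by 0.57 ± 0.11. Sec61b, of the translocation channel, had a log2 fold change of -0.62 ± 0.16, a call lost without WT replicate 1 (-0.31, adjusted p = 0.111).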

How the data were processed

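Per the submitters' processing notes, reads were checked with FastQC and aligned with STAR 2.6.0c to GRCm38; per the labels' protocols, libraries were ribosomal RNA-depleted and strand-specific. The authors deposited unnormalized read counts for each Ensembl gene; no source used here gives the annotation release. Reverse-strand counts were used; the opposite strand held 4.68% to 6.10% of stranded counts. Reads over several loci or overlapping genes are left out of such counts. Rows without a gene (46.6% to 50.5% of reads) were left out. GENCODE M21 matched 54079 of 54146 identifiers. Counts were fitted with edgeR 4.0.16 in R 4.3.3 (filterByExpr with a minimum count of 10, TMM factors 0.951 to 1.03, 1 coefficient per group over 6 libraries, 3 residual degrees of freedom), adjusted over 13120 genes. The SE is the size of the log2 fold change over the square root of F. Replicates of a group were not copies of 1 library: chi-square over its degrees of freedom was 13.6 (WT), 19.4 (clone 1) and 22.2 (clone 2). Floors cover counting error only. DESeq2 1.42.0 and limma 3.58.1 (voom) were alternatives. The steps were tested on simulated data. The members, lists and tests were chosen with earlier results of these data known. Named were all 38 members, Mki67, up to 2 genes called higher and 2 called lower with the largest fold in each neighbouring list, 6 cell type markers, and 5 genes chosen after their values were seen; 1 gene of these lists is not reported here.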

Additional observations from a re-analysis of the deposited data

Results flagged for a closer look

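In 3 members the fold change differed between the knockout clones by a test of the difference itself. Clone 2 was higher than clone 1 by 0.77 for Chac1, 0.69 for Mthfd2 and 0.65 for Pycr1 on the log2 scale. Without clone 1 replicate 2 the differences were 0.65 for Chac1 (edgeR's quasi-likelihood test, adjusted p = 0.133), 0.58 for Mthfd2 (0.117) and 0.56 for Pycr1 (0.164). Without clone 2 replicate 1 they were 0.81 (0.0705), 0.69 (0.0903) and 0.74 (0.114), and without clone 2 replicate 2 they were 0.71 (0.161), 0.69 (0.104) and 0.55 (0.387). Pycr1 was also lost without clone 1 replicate 1 (0.75, 0.0644).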

How the results depend on the processing

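The count of called members against WT in the mean of both clones was 26. It was 24 with the GC and length correction, and 25 with library totals or the clones as 1 group. Leaving out 1 library gave 16 to 27 called members for clone 1, 12 to 25 for clone 2 and 0 to 7 between clones, and 2205 to 4348, 1669 to 4010 and 156 to 1208 called genes in all. Between clones, no low-count filter gave 6 members and 813 genes, and the GC and length correction 5 and 820. Correlations of deviations by replicate number were 0.267 for WT and clone 1, -0.0939 for WT and clone 2, and -0.113 between clones. With 2 libraries per group they cannot decide whether replicate numbers pair the samples, and no pairing was used. The replicate block kept the counts of called members at 26, 25, 24 and 3. Library totals alone moved the median of all genes to 0.08. Leaving out mitochondrial and abundant non-coding RNA genes, chosen after seeing the data, left 26 called. For the mean of both clones, each member was paired with each alternative that gave it a value. Of these pairs, 568 kept direction and call, 13 lost the call, 3 gained it and 10 reversed. The pairs reuse the same 6 libraries and are not independent.

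Signs turned in members that were not called and in Gadd45a. With the GC and length correction, Phgdh was at 0.15 in the mean, 0.059 in clone 1 and 0.23 in clone 2, Wars at 0.16 in the mean, and, in clone 1, Cebpb at 0.019 and Ddit4 at 0.065. With library totals, Wars was at 0.072 in the mean, and, in clone 2, Phgdh at 0.049 and Aldh1l2 at 0.021. With no low-count filter, Wars was at 0.042 in the mean and Phgdh at 0.0017 in clone 2; with the clones as 1 group, Wars was at 0.0069. Leaving out 1 library, the mean contrast spanned -0.0054 to 0.26 for Slc7a1, -0.25 to 0.079 for Phgdh, -0.47 to 0.22 for Aldh1l2, -0.051 to 0.037 for Wars and -1.82 to 0.024 for Gadd45a. Clone 1 spanned -0.31 to 0.019 for Phgdh and -0.61 to 0.077 for Aldh1l2. Clone 2 spanned -0.019 to 0.24 for Slc7a1, -0.32 to 0.019 for Slc1a4, -0.19 to 0.14 for Phgdh, -0.33 to 0.35 for Aldh1l2 and -0.10 to 0.38 for Nars. The cause was not tested. Depth limits Atf3, Cbs, Slc7a3 and Gdf15, with 10 or fewer counts a library.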
